A study of Mus musculus with 4 samples.

Results

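RNA levels of the genes outside the olfactory receptor families were compared between sorted cells of the mouse main olfactory epithelium (MOE) with and without a tdTomato reporter driven by TAAR enhancer 2. TAAR enhancer 2 is a stretch of DNA in the cluster of genes for trace amine-associated receptors (TAARs), the smaller of the receptor families of olfactory sensory neurons (OSNs). All genes with symbols beginning with *Olfr* or *Taar* were set aside, and a gene was kept if it had at least 10 TPM in either tdTomato library. TPM is the relative abundance of a gene's transcripts after correction for their length, so that levels of different genes can be compared. Of the 24421 genes with deposited values, 23281 were not receptor genes by this rule and 11586 of those reached 10 TPM. *Fut1* was the gene just inside the limit, with a higher value of 10.003 TPM, and *Igsf9b* the gene just outside, with 9.999 TPM.

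The tdTomato-positive and the tdTomato-negative cells came from the same transgenic line, labelled TAAR enhancer 2-tdTomato transgenic, labelled as C57BL/6. In this line the enhancer drives the red fluorescent protein tdTomato from the Hsp68 minimal promoter, the transgene was inserted with PiggyBac, and 1 founder line was kept, so that the effects of the insertion site and of the enhancer cannot be told apart. Cells of the dissociated MOE were sorted by fluorescence. The labels call the mice adult, while the study's Reporting Summary gives 14 to 21 days after birth and both sexes, and it gives the study's mouse lines a mixed background of C57BL/6J and a second strain. A second line, TAAR enhancer 1-GFP transgenic, also C57BL/6 and also labelled adult, gave a GFP-positive and a GFP-negative library that are used here only for comparison. The Reporting Summary gives 14 days after birth for that line. Each of the 4 groups has 1 library, so no difference here has a replicate check and no p-value was calculated.

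The MOE is a layered epithelium. OSNs detect odours on their cilia and are renewed from basal stem cells through dividing precursors and immature neurons. Around them stand sustentacular cells, which hold enzymes that break down foreign chemicals, Bowman glands and their ducts, which secrete mucus, and a few microvillar cells. At its border the olfactory epithelium meets respiratory epithelium, in which multiciliated cells move the mucus and secretory cells release antimicrobial proteins. Leukocytes are found in the tissue as well. In a bulk sample, fewer cells of a type and less RNA per cell cannot be told apart, and this holds for each group of genes below.

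The libraries were alike for most genes and far apart for a minority. Differences are given as tdTomato-positive minus tdTomato-negative on the log2(TPM + 1) scale, where 1 is about 2-fold and 2 about 4-fold. This scale understates the change of genes with low values. The median difference of the 11586 genes was -0.20, and 7937 of them (68.5%) were within 2-fold. At least a 4-fold higher value in tdTomato-positive cells was found for 859 genes (7.41%) and at least a 4-fold lower value for 823 (7.10%). Where a pair of TPM values is given for a gene or a list, the first is the tdTomato-negative and the second the tdTomato-positive library. With a 2-fold limit the counts were 1728 higher (14.9%) and 1921 lower (16.6%). A difference below 0 was found for 6932 genes (59.8%) and one above 0 for 4654 (40.2%). These percentages are the background against which the gene groups below are read. When the libraries were instead scaled so that 12 marker genes of mature OSNs had equal mean values, the median of all genes moved by 0.99 and the split became 1713 genes higher and 596 lower.

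A gene that reached 10 TPM in only 1 of the libraries had to differ to some extent, in a direction set by this minimum. Such genes numbered 1119 in tdTomato-positive and 1436 in tdTomato-negative cells, while 9031 genes reached 10 TPM in both. The counts of higher and lower genes in the groups below include such genes. Among the 9031, 252 were at least 4-fold higher in tdTomato-positive cells and 76 were at least 4-fold lower. Genes listed at 0 in one library were 169 of the 859 and 211 of the 823. For these genes no fold is given.

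TPM values sum to the same total in each library, so that a rise of some genes lowers the values of all others, and the read depth of the libraries is unknown. The 859 higher genes held 2.14% of all TPM in the negative library and 20.7% in the positive library. The 823 lower genes held 5.86% and 0.390%.

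**Figure D1:**
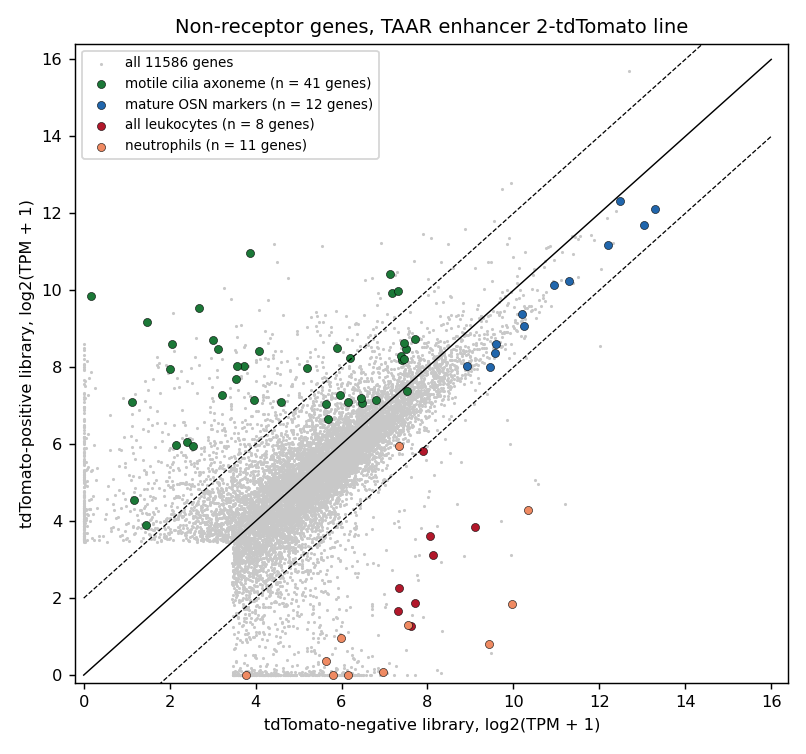
log2(TPM + 1) of the 11586 non-receptor genes in the tdTomato-negative library (x axis) and the tdTomato-positive library (y axis), 1 library each; the solid line is equality and the dashed lines are differences of 2 (about 4-fold). Of the 41 axoneme genes, 40 lie above the line of equality, whereas the 12 mature OSN markers lie just below it. The 8 leukocyte genes and 10 of the 11 neutrophil genes lie at or below the lower dashed line, *Cxcr4* being the exception.

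Genes of motile cilia were higher in tdTomato-positive cells with few exceptions. The axoneme is the microtubule core of a motile cilium, bent by dynein motors and patterned by radial spokes, and multiciliated cells build many such cilia whereas the cilia of mouse OSNs are thought not to beat. Of the 44 genes listed as axoneme genes, 41 reached 10 TPM. The list was chosen with earlier results of these data known and includes genes of ciliated cells such as *Cdhr3* and *Fam183b*. Of the 41, 27 were at least 4-fold higher in tdTomato-positive cells, none was 4-fold lower, and 40 had a difference above 0. Some of the 27, such as *Dnah5*, were below 10 TPM in tdTomato-negative cells and reached that minimum only through tdTomato-positive cells. The median difference was 2.77, and the summed level of the list was 2530 and 14982 TPM, a ratio of 5.92. The exception was *Spef2*, which is needed for sperm tails and was 183 and 165.4 TPM.

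The largest rise among all genes belonged to *Fam183b*, a gene of multiciliated cells, which was 0.122 and 925.7 TPM (difference 9.69). *Ccdc153*, a coiled-coil gene of motile cilia, was 13.6 and 2010 TPM. *Sntn*, which encodes sentan of the tips of motile cilia, was 1.77 and 573 TPM, and *Cdhr3*, a cadherin of ciliated airway cells, was 5.40 and 748.1 TPM. *Tppp3*, a microtubule-bundling protein, was 138.4 and 1374 TPM, so that it was well above 10 TPM in tdTomato-negative cells already.

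The parts of the axoneme were represented throughout. Axonemal dynein heavy chains, the motors themselves, reached 10 TPM for 9 of 11 genes. Of these, 8 were at least 4-fold higher, and the family summed to 88.2 and 1264 TPM. Among the 8, all but *Dnah9* (12.2 TPM) were below 10 TPM in tdTomato-negative cells. Those genes reached 10 TPM only through tdTomato-positive cells, so their direction was set by that minimum. *Dnah5* of the outer arm was 7.75 and 354 TPM, and *Dnah6*, an inner arm heavy chain, was 3.05 and 246.8 TPM. *Dnah11* was the member below 4-fold, at 50.5 and 99.4 TPM. *Dnah7a* and *Dnah7b* are near-identical copies, and their values depend on how shared reads were assigned. Among radial spoke genes, *Rsph1* was 142.4 and 967.5 TPM and *Rsph4a* 58.8 and 360 TPM. *Hydin*, of the central pair, was 8.29 and 154 TPM. All 3 tektins that reached 10 TPM were at least 4-fold higher, among them *Tekt4* with 10.7 and 207 TPM.

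Other axoneme genes were already high in tdTomato-negative cells and differed by less. *Ccdc39* and *Ccdc40*, which set the spacing of the axoneme, were 179.0 and 169.7 TPM there and 352.6 and 292.8 TPM in tdTomato-positive cells. *Cfap69*, which is not in the axoneme list but carries a cilium name and is known from OSN cilia, was 407 and 446 TPM. Of 17 genes named for cilia and flagella, 8 were at least 4-fold higher, none was lower by that limit, and the smallest difference was 0.0023 (*Cfap61*). Genes of intraflagellar transport and of the BBSome, which carry cargo in the sensory cilia of OSNs as well as in motile cilia, were on the higher side by less. Of 24, 20 had a difference above 0, against 40.2% of all genes, and none was past 4-fold in either direction. The median difference was 0.49 (1.49 when scaled to the mature OSN markers), with *Ift88* at 94.7 and 200.3 TPM and *Bbs4* at 101.8 and 102 TPM.

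Regulators of the multiciliated fate were higher too, but not all of them. *Foxj1*, the forkhead factor that switches on genes of motile cilia, was 114.3 and 975.5 TPM. *Trp73*, which acts upstream of *Foxj1*, was 6.68 and 65.0 TPM. *Myb*, which acts early in the program, was 15.1 and 73.3 TPM. *Mcidas*, which starts the making of many centrioles, was listed at 0 in the negative library and at 11.1 TPM in tdTomato-positive cells. These 4 genes were the ones past 4-fold among the 9 regulators that reached 10 TPM. The X-box factors differed less, with *Rfx2* at 42.2 and 89.5 TPM and *Rfx3* at 88.9 and 100.9 TPM. *Plk4* and *Cep152*, which act in centriole duplication in dividing cells as well, were lower by 1.201 and 1.06 on the log2(TPM + 1) scale.

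RFX factors bind X-box motifs near the start of many cilium genes, so the promoters of the axoneme genes were searched for the letters of an X-box half-site. Promoters from 250 bases before to 50 bases after each start were taken from RefSeq (GRCm38.p6), and the letters GTTGCCA and GTTGCTA were searched on both strands. The motifs were chosen after the results were seen. Of the 41 axoneme genes, 36 had a promoter in the table, and 20 of their 42 promoters (47.6%) held either form, against 7.63% of all 32851 promoters. The share was 12.8% for promoters of the genes at least 4-fold higher in tdTomato-positive cells (98 of 768) and 3.35% for those at least 4-fold lower (25 of 747). Of the 13 promoters of mature OSN markers, which were lower, 3 held either form (23.1%). The forkhead letters TGTTTAC were in 3 of the 42 axoneme promoters (7.14%) and in 3.65% of all promoters. A match is a run of letters and not a measured binding site. The stretches shown here hold the match with bases before it and, except in *Cdhr3*, bases after it, none past the annotated start, and belong to the 6 axoneme genes of highest TPM in tdTomato-positive cells among those with a match before the start. Capitals mark either half-site form, on either strand, in the direction of the gene.
Cdhr3, minus strand, chr12:33092876-33092922: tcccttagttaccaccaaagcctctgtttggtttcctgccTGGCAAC
Sntn, plus strand, chr14:13670770-13670856: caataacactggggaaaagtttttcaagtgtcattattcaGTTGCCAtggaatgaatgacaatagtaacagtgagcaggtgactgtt
Drc1, plus strand, chr5:30281341-30281392: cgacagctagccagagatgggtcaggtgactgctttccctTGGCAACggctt
Dnah5, plus strand, chr15:28203618-28203704: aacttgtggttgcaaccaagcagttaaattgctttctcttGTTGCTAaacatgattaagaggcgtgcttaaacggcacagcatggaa
Cfap44, plus strand, chr16:44394739-44394798: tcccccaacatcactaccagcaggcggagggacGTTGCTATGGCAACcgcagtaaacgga
Tekt1, minus strand, chr11:72361883-72361937: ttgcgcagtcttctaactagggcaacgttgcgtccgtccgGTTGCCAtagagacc
The 6 genes differed widely in their values. *Cdhr3*, *Sntn* and *Dnah5* were below 10 TPM in tdTomato-negative cells. *Drc1*, of the nexin-dynein regulatory complex, was 174.9 and 396.3 TPM, *Cfap44* was 165.3 and 315.2 TPM, and *Tekt1* was 72.0 and 302.2 TPM.

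Among the 15 genes with the largest rises, *Ldlrad1*, *1700026L06Rik*, *Tctex1d4*, *Plet1*, *Lhb*, *1700001C02Rik*, *Catip* and *Prr29* were listed at 0 in the negative library and had between 256.2 and 387.2 TPM in tdTomato-positive cells. *Tctex1d4* belongs to a dynein light chain family. *Lhb* encodes the beta chain of luteinizing hormone, and reads of genes that overlap it cannot be told apart from its own. A few families were added after the values were seen. Of 17 *Spag* and *Spata* genes, named for sperm, 6 were at least 4-fold higher and none was lower by that limit. *Spata18* was 3.23 and 673 TPM. Of 101 *Ccdc* genes, 20 were at least 4-fold higher and 1 lower, and of 36 *Ttc* genes 8 were higher and none was lower. Of 424 genes named *Rik*, 63 were higher and 35 lower. The shares over all genes were 7.41% and 7.10%, so the lower count is near that of all genes.

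Small RNA genes among the extremes need separate treatment. *Snord64*, *Mir568* and *Mir1195* were listed at 0 in the negative library and had 249.2, 240.6 and 202.2 TPM in tdTomato-positive cells. *Snord96a* and *AF357359* had 183.1 and 118.7 TPM in tdTomato-negative cells and were listed at 0 in tdTomato-positive cells. Of 76 microRNA and small nucleolar RNA genes, 30 were at least 4-fold higher and 28 at least 4-fold lower, with a median difference of -0.08. Such genes are short and often lie inside longer genes, so that single reads weigh heavily in TPM and reads of the host gene cannot be told apart.

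Secretory proteins of the nasal mucosa included the highest gene of tdTomato-positive cells. *Bpifa1*, an antimicrobial protein of airway mucus, was 6643 and 53377 TPM, a ratio of 8.03. It was the highest gene in tdTomato-positive cells and the third highest member in tdTomato-negative cells, and its share of all TPM was 0.664% and 5.34%. *Reg3g*, an antimicrobial lectin, followed it in tdTomato-positive cells and was 978.8 and 7113 TPM. *Tff2*, a trefoil peptide of mucus, was 67.7 and 645.4 TPM. *Pigr*, which carries immunoglobulin A across epithelia, was 83.1 and 556.3 TPM. *Scgb3a1*, a secretoglobin, was 14.7 and 148.6 TPM. *Muc5b*, a gel-forming mucin, was 14.2 and 104.7 TPM, whereas the gel-forming mucins *Muc5ac* (32.9 and 10.7 TPM) and *Muc2* (12.2 and 3.74 TPM) went the other way.

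The list of secretory epithelium split into opposite parts. Of its 24 genes, 18 reached 10 TPM. Of these, 7 were at least 4-fold higher in tdTomato-positive cells and 6 at least 4-fold lower. The median difference was -1.41 whereas the summed level was higher, 16595 and 62683 TPM, since *Bpifa1* made up most of it. Only the 7 higher genes and *Obp2b* had a difference above 0. With a minimum of 50 TPM the median was 0.70, so the list has no single direction. The 6 genes at least 4-fold lower were odorant-binding proteins, lipocalins and related proteins of nasal glands. *Bpifb3* was 2337 and 20.6 TPM, *Obp1a* 1518 and 30.1 TPM, and *Scgb1c1*, a secretoglobin, 4145 and 375.7 TPM. *Lcn11* was 299.5 and 0.0906 TPM, *Mup4* 222.5 and 7.77 TPM, and *Obp2a* 86.6 and 0.580 TPM. *Lcn2*, an iron-siderophore-binding lipocalin of many epithelia and of neutrophils, was lower by much less, at 290.5 and 265.2 TPM. *Scgb1a1* and *Lcn4* were listed at 0 in both libraries.

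The *Bpif* genes sat on both sides of this split, and their direction followed their order along chromosome 2. These genes encode secreted proteins of one fold that bind lipids and bacterial products. On GRCm38, *Bpifb6* (153900388 to 153912795), *Bpifb3* (153918198 to 153932996) and *Bpifb4* are neighbours and had lower values in tdTomato-positive cells, with differences of -1.77, -6.76 and -1.33. *Bpifa1* (154142880 to 154149217), *Bpifb1*, *Bpifb5*, *Bpifb9a* and *Bpifb9b* (154307244 to 154320644) follow at higher positions and had higher values, with differences from 1.73 (*Bpifb5*) to 3.17 (*Bpifb9b*). *Bpifa2*, *Bpifa5* and *Bpifa6*, among the genes between, were listed at 0 in all 4 libraries. *Bpifb9a* was 46.4 and 402.7 TPM and *Bpifb9b* 149.6 and 1354 TPM, but these are close paralogs and their split depends on how shared reads were assigned. All 8 measured *Bpif* genes were at least 4-fold higher in GFP-positive than in GFP-negative cells of the enhancer 1 line. There, *Bpifb3* was 102.6 TPM without and 4867 TPM with GFP.

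**Figure D2:**
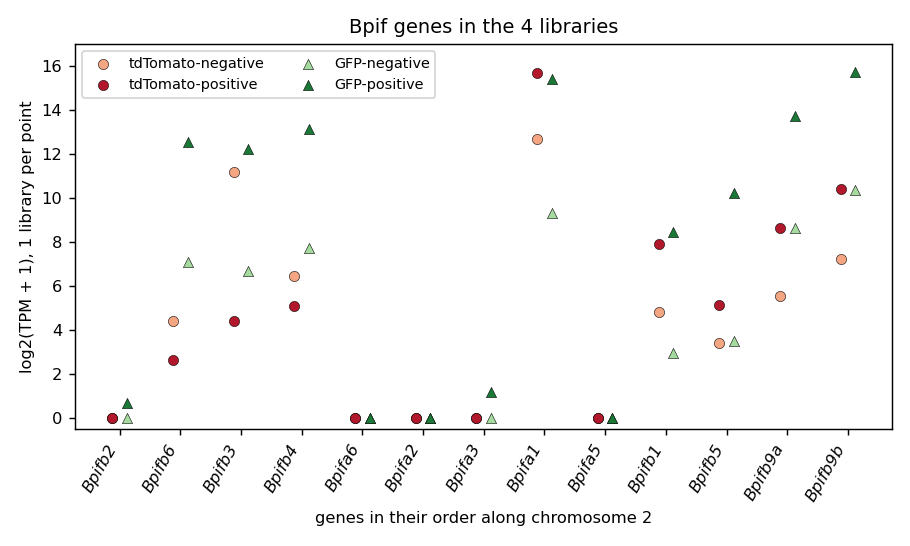
log2(TPM + 1) of 13 *Bpif* genes in the 4 libraries (y axis, 1 library per point), set out in their order along chromosome 2 (x axis); circles are the tdTomato line and triangles the GFP line, with pale colours for reporter-negative and dark colours for reporter-positive cells. *Bpifb6*, *Bpifb3* and *Bpifb4* are lower in tdTomato-positive than in tdTomato-negative cells, the 5 genes from *Bpifa1* to *Bpifb9b* with signal are higher, and all 8 are higher in GFP-positive than in GFP-negative cells.

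Markers of Bowman glands were mostly on the higher side. Of 10 that reached 10 TPM, 6 were at least 4-fold higher and none was 4-fold lower, with a median of 2.44. *Sox9*, a transcription factor of gland and duct cells, was 1.78 and 27.5 TPM. *Aqp5*, a water channel of gland cells, was 18.4 and 165.8 TPM. *Ltf*, lactoferrin, which neutrophils also make, was 496 and 286.2 TPM, and *Kcnn4*, a calcium-activated potassium channel, was 16.2 and 7.05 TPM. Of 4 aquaporins 3 were at least 4-fold higher, *Aqp5* among them, whereas *Aqp3* was 152 and 129.3 TPM.

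Sustentacular cell markers were mostly on the higher side. Of 15, 12 had a difference above 0, 5 were at least 4-fold higher and 1 was at least 4-fold lower. The median was 0.59, and it was 1.55 when scaled to the mature OSN markers and 1.88 with a minimum of 50 TPM. *Cbr2*, a carbonyl reductase, was 855.3 and 6327 TPM, which made it the third highest gene of tdTomato-positive cells. *Cyp2f2* was 466.5 and 3094 TPM and *Cyp2a5* 745.2 and 3572 TPM. Both are cytochrome P450 enzymes that oxidize foreign chemicals, and *Cyp2a5* shares sequence with *Cyp2a4*, so that reads could be assigned to either. *Sox2*, a factor of sustentacular and basal cells, was 17.2 and 148.5 TPM. *Fmo2*, a flavin monooxygenase, was 19.97 and 123.0 TPM. The P450 genes most often used to mark sustentacular cells went the other way, with *Cyp2g1* at 248.2 and 84.9 TPM and *Cyp1a2* at 36.9 and 10.9 TPM. *Sult1c1* and *Sult1d1*, sulfotransferases, were near equal, at 291.0 and 304.2 TPM and at 981.9 and 994.3 TPM. *Ermn* was 8.46 and 12.9 TPM. *Gpx6*, a glutathione peroxidase of the olfactory epithelium, was the member past 4-fold in the lower direction, at 209 and 7.54 TPM.

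Most listed genes of drug metabolism were higher in tdTomato-positive cells. Of 32 measured, 14 were at least 4-fold higher, none was at least 4-fold lower, and 25 were at least 2-fold higher, with a sum of 4351 and 18205 TPM. The differences of a few were far above the others. *Aldh1a1*, a retinaldehyde dehydrogenase, was 45.8 and 2271 TPM. *Cyp4b1* was 15.8 and 722 TPM, and *Cyp2b10* 3.32 and 174.7 TPM. *Gstm1*, which conjugates glutathione, was 239 and 2813 TPM. *Por*, the reductase that serves all microsomal P450 enzymes, was 187.1 and 515.6 TPM. The list shares several genes with the sustentacular list, so the 2 counts are not separate evidence. Of the 19 cytochrome P450 genes that reached 10 TPM, 7 were at least 4-fold higher and 4 at least 2-fold lower, of which *Cyp4f18* (68.7 and 3.16 TPM) was past 4-fold.

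Genes of epithelial adhesion, found in non-neuronal epithelial cells generally, were higher as well. Of 16, 7 were at least 4-fold higher, 12 were at least 2-fold higher and none was at least 4-fold lower, with a median of 1.81. *Krt7*, a keratin of simple epithelia, was 10.7 and 333.7 TPM. *Krt19* was 36.8 and 248.4 TPM. *Cdh1*, E-cadherin, was 40.9 and 354.5 TPM. *Tjp3*, a tight junction scaffold, was 11.8 and 94.8 TPM. *Epcam*, an adhesion molecule of epithelia, was near equal at 302.7 and 305.8 TPM.

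Markers of mature OSNs were lower in tdTomato-positive cells, by about 2-fold. All 12 had a difference below 0, 7 were at least 2-fold lower, and none was past 4-fold. Their median was -1.04 against -0.20 for all genes, and under the scaling to these same markers it was -0.0306. *Omp*, olfactory marker protein, was 10108 and 4427 TPM. *Stoml3*, a protein of OSN cilia, was 8419 and 3332 TPM. *S100a5*, a calcium-binding protein whose level follows odour-evoked activity, was the exception in size, at 5667 and 5146 TPM (-0.14). These genes stayed among the highest of tdTomato-positive cells, where *S100a5*, *Omp* and *Stoml3* were among the 10 highest members.

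Genes of the odour transduction cascade had lower values too. Receptors signal through the G protein Golf to adenylyl cyclase, and cyclic AMP opens a cation channel whose calcium opens a chloride channel. All 14 measured genes had a difference below 0, with a median of -0.82, although this median was 0.19 under the scaling to OSN markers. Of the 14, 6 are also among the 12 mature OSN markers, so the lists are not separate evidence. *Gnal*, the alpha subunit of Golf, was 1973 and 1128 TPM, *Adcy3*, the cyclase, 1177 and 663.3 TPM, *Cnga2*, of the cyclic nucleotide-gated channel, 1216 and 541.4 TPM, and *Ano2*, the chloride channel, 483.5 and 260.7 TPM. *Slc12a2*, the chloride importer, differed least at 270.5 and 231.6 TPM. Presynaptic genes were similar, with a median of -0.69 over 16 (0.31 under that scaling). *Drd2*, the dopamine receptor of OSN terminals, was 222.4 and 83.1 TPM.

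Regulators of receptor choice were mostly lower as well. *Lhx2* and the *Ebf* genes encode factors that bind receptor enhancers and promoters, and *Atf5* and *Ddit3* belong to the unfolded protein response that a newly chosen receptor triggers. Of 14 genes, 13 had a difference below 0, and the median was -0.78 (0.22 under the scaling to OSN markers). *Lhx2* was 370.9 and 202.8 TPM, *Ebf1* 198.2 and 86.8 TPM, and *Atf5* 1717 and 986.8 TPM. *Ddit3* was lower by more, at 194.1 and 59.0 TPM. Genes of heterochromatin, which silences receptor genes, were all within 2-fold, and their median was -0.37 (0.58 under that scaling).

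Axon guidance and axon sorting genes were lower by about the same amount as OSN markers, with a median of -1.03 over 20 and none past 4-fold. The median was -0.0612 when scaled to the mature OSN markers. *Plxna1*, a semaphorin receptor, was 185.5 and 67.9 TPM, and *Efna5*, an ephrin, 66.1 and 17.3 TPM. *Kirrel2*, an adhesion molecule whose level depends on activity, was 751.0 and 466.4 TPM. *Sema3f* (41.6 and 58.8 TPM) and *Tenm4* (21.4 and 42.4 TPM) were the members with a difference above 0. The zone markers, which tell dorsal from ventral OSNs, had differences below 0 in 5 of 6 genes, against 59.8% of all genes. Of the dorsal genes, *Nqo1* was 949.4 and 300.8 TPM and *Robo2* 76.0 and 31.0 TPM, whereas *Acsm4* was 311.1 and 351.2 TPM. The ventral genes *Ncam2* (48.5 and 26.0 TPM), *Nrp2* (48.2 and 20.7 TPM) and *Pcdh10* (24.4 and 20.7 TPM) were on the lower side. Scaled to the mature OSN markers, the median was 0.11 for the ventral and -0.28 for the dorsal genes.

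Immature OSNs, precursors and dividing cells had medians below 0. The 15 markers of immature OSNs had a median of -1.02, close to that of mature OSNs. It was -0.0138 when scaled to the mature OSN markers. *Gap43*, of growing axons, was 302.2 and 199.6 TPM and *Marcksl1* 199.6 and 53.6 TPM. Among precursor genes, *Neurod1* was 44.5 and 5.52 TPM, and *Hes6* was 63.8 and 78.0 TPM. Only 6 of the 11 precursor genes reached 10 TPM, with a median of -1.102 (-0.126 under that scaling). Of 15 cell cycle genes, 7 were at least 4-fold lower, each below 10 TPM in tdTomato-positive cells. The median was -1.93 (-1.07 under that scaling). *Mki67* was 23.4 and 1.56 TPM, *Top2a* 37.7 and 7.31 TPM and *Cdc20* 13.1 and 0.0662 TPM. *Mcm4* (28.3 and 33.0 TPM) and *Cdk1* (7.75 and 11.9 TPM) were the members with a difference above 0, and *Pcna* was 231.7 and 154.2 TPM.

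Horizontal basal cells, the reserve stem cells of the epithelium, were represented by few transcripts in either library. The keratins *Krt5*, *Krt14* and *Krt15* were 56.5 and 16.5 TPM, 29.4 and 5.55 TPM, and 19.5 and 3.99 TPM. *Icam1*, which inflamed cells and leukocytes express too, was 39.3 and 1.12 TPM. The integrins that anchor basal cells were on the other side, with *Itgb4* at 3.81 and 11.8 TPM and *Itga6* at 7.47 and 12.4 TPM. The list summed to 171.2 and 58.3 TPM.

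Leukocyte genes were far lower in tdTomato-positive cells. All 8 genes that leukocytes share were at least 4-fold lower, with a median of -5.16, and their sum was 2043 and 98.5 TPM. Only *Coro1a*, *Cd52* and *Lcp1* of these were above 10 TPM in tdTomato-positive cells. *Ptprc*, which encodes CD45, was 194 and 1.42 TPM. *Lcp1*, an actin-bundling protein of leukocytes that other cells also use, differed least, at 236.5 and 56.0 TPM and made up most of the remaining sum.

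Neutrophil genes were lower too. Of 11, 10 were at least 4-fold lower, the median was -6.06, and the sum was 3697 and 86.0 TPM. The median was -3.01 with a pseudocount of 10 and -6.99 with 0.1. All but *Il1b* and *Cxcr4* were below 10 TPM in tdTomato-positive cells. *S100a8* and *S100a9*, the calprotectin chains, were 687.1 and 0.754 TPM and 996.6 and 2.59 TPM. *Il1b*, interleukin 1 beta, was 1294 and 18.4 TPM. *Cxcr2*, *Retnlg* and *Mmp8* were listed at 0 in tdTomato-positive cells. *Cxcr4*, a chemokine receptor found outside neutrophils too, was the exception at 160 and 61.5 TPM. The largest fall among all genes was that of *Cxcl2*, a chemokine that draws neutrophils, with 713.3 and 0.491 TPM (-8.90). Of the 15 largest falls, *Cxcl2*, *S100a8*, *Lilrb4a*, *S100a9*, *Il1r2*, *Il1rn*, *Lilr4b*, *Alox5ap*, *Hcls1*, *Il2rg*, *Thy1* and *Ngp* are genes that leukocytes express.

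Lymphocytes and macrophages showed the same direction. All 11 lymphocyte genes were at least 4-fold lower, against 7.10% of all genes, with sums of 561.4 and 6.53 TPM. T cell genes such as *Cd3g* (103.6 and 0.404 TPM) and B cell genes such as *Cd79a* (57.8 and 0.134 TPM) were alike in this. In tdTomato-positive cells all 11 were below 10 TPM, *Cd79b* being the highest at 2.42 TPM. They reached 10 TPM only through tdTomato-negative cells, so their direction was set by that minimum. Of 10 macrophage genes, 7 were at least 4-fold lower. *Csf1r*, the receptor for their growth factor, was 47.7 and 3.51 TPM, but the complement genes *C1qa*, *C1qb* and *C1qc* kept 21.7, 27.7 and 15.4 TPM in tdTomato-positive cells. *Cd74*, the invariant chain of MHC class II, was 921.9 and 97.8 TPM. *H2-DMb1* was 22.9 and 35.7 TPM, against the other 5 class II genes. All 6 *Ms4a* genes that reached 10 TPM were at least 4-fold lower. Mast cell genes did not reach 10 TPM.

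**Figure D3:**
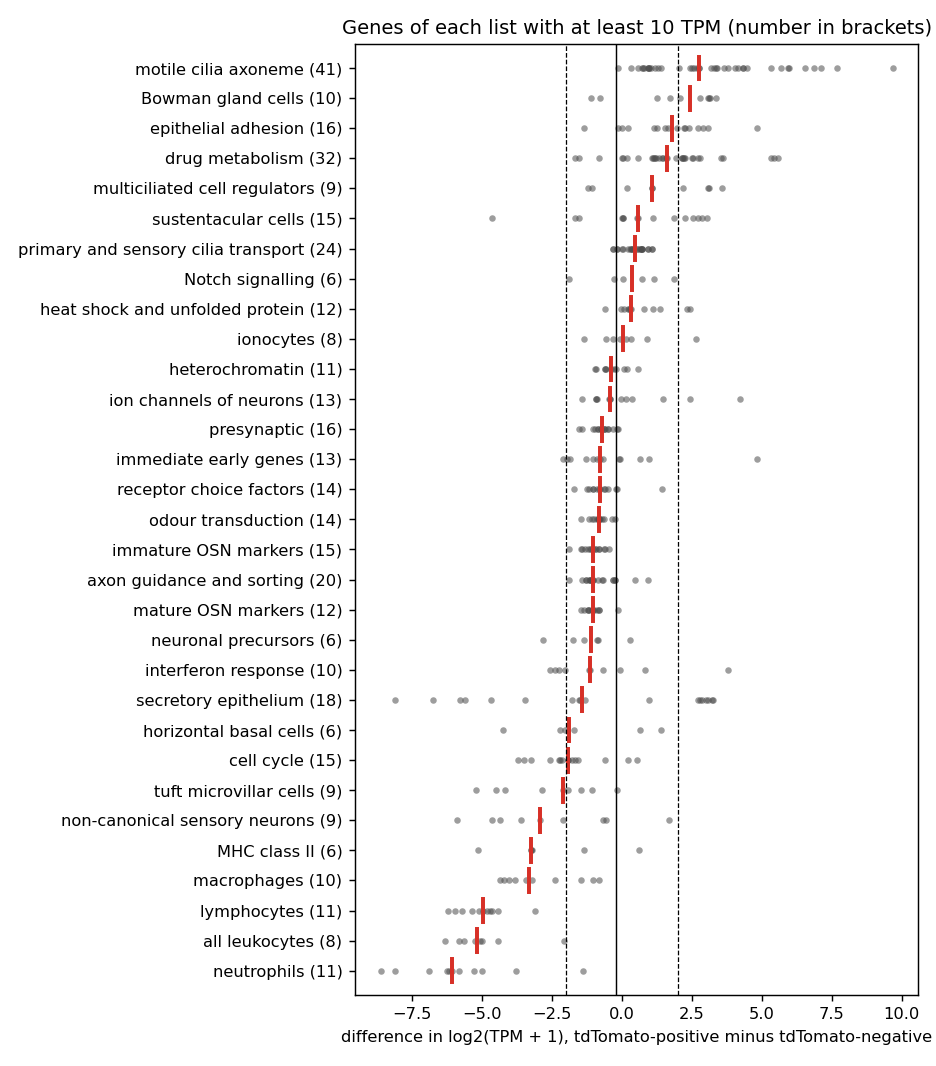
Difference in log2(TPM + 1), tdTomato-positive minus tdTomato-negative (x axis), for the genes of each list with 5 or more members (y axis); each grey dot is 1 gene, the red bar is the list's median, the solid line is the median of all 11586 genes (-0.20) and the dashed lines are 4-fold. Motile cilia axoneme genes have the highest median (2.77) and neutrophil genes the lowest (-6.06), and the secretory epithelium list spreads from -8.11 to 3.25. The lowest list changes with the pseudocount, being lymphocytes with 0.1 (-7.47) and the shared leukocyte genes with 10 (-3.90).

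Rarer cells of the epithelium differed from one another. Tuft-like microvillar cells, which sense irritants and make leukotrienes, had lower values in tdTomato-positive cells. Of 9 of their genes, 5 were at least 4-fold lower, each below 10 TPM in tdTomato-positive cells. *Trpm5*, their taste-type channel, was 35.5 and 0.620 TPM, and *Pou2f3*, the factor that specifies them, 24.2 and 8.27 TPM. *Alox5* (18.4 and 3.55 TPM) is a leukocyte gene too. Of 8 genes of ionocytes, the other microvillar type, 4 had a difference above 0 and 4 below, with a median of 0.05 (1.03 when scaled to the mature OSN markers) and sums of 864.2 and 890.2 TPM. *Ascl3* was 144.5 and 183.9 TPM and *Foxi1* 33.2 and 26.4 TPM, whereas *Atp6v1c2*, a proton pump subunit, was 27.9 and 181.2 TPM. For sensory neurons that use other pathways, *Car2*, carbonic anhydrase, was 281.8 and 36.0 TPM and *Gucy2d* 10.98 TPM and listed at 0, while *Gucy1b2* was 2.95 and 11.8 TPM. The *Ms4a* genes of that list are also expressed by leukocytes. None of the 338 vomeronasal receptor genes reached 10 TPM.

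Cells outside the epithelium left few transcripts in either library. Only 1 of 12 endothelial genes reached 10 TPM, *Pecam1* at 41.0 and 6.29 TPM, and it is also a leukocyte gene. *Dcn* alone of the fibroblast genes (29.6 and 30.8 TPM) and *Rgs5* alone of the mural cell genes (158.2 and 15.2 TPM) did so. *Alas2*, of haem synthesis, was the 1 erythroid gene above the limit, at 26.3 and 6.15 TPM. Of the ensheathing glia genes 3 of 8 reached 10 TPM, among them *Fabp7* at 8.26 and 23.0 TPM and *Npy* at 0 and 21.4 TPM.

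Of 12 heat shock and unfolded protein genes, 10 had a difference above 0, against 40.2% of all genes, and the median was 0.31. *Hspb1* (46.4 and 257.2 TPM) and *Hsph1* (64.8 and 333.3 TPM) were at least 4-fold higher and none was lower by that limit. Immediate early genes differed in both directions. Of 13, 10 had a difference below 0, against 59.8% of all genes, with a median of -0.77 (0.24 when scaled to the mature OSN markers). *Arc*, an activity-dependent gene of synapses, was 2.28 and 92.9 TPM, whereas *Zfp36*, which destabilizes cytokine mRNAs, was 669.8 and 156.8 TPM. *Ier2* (273.7 and 111.5 TPM), *Ier3* (137.8 and 34.9 TPM), *Nr4a1* (298.5 and 81.4 TPM) and *Atf3* (51.96 and 25.2 TPM) were also at least 2-fold lower. *Fos* was near equal at 676.6 and 646.3 TPM and *Egr1* was 237.8 and 223.6 TPM. Interferon-response genes were mostly lower, with 4 of 10 at least 4-fold lower, among them *Isg15* at 36.4 and 6.96 TPM. Their median was -1.14, but -0.0597 with a minimum of 50 TPM and -0.17 when scaled to the mature OSN markers. *Usp18*, which removes ISG15 from proteins, went the other way at 5.22 and 85.3 TPM. Of the Notch genes, *Notch1* was 16.8 and 3.83 TPM and *Hes1*, a target of the pathway, 16.6 and 63.8 TPM.

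Housekeeping groups differed from each other. Cytosolic ribosomal protein genes had a median of -0.90 over 81 genes, with 28 at least 2-fold lower and 1 at least 2-fold higher, and their sum was 58984 and 32840 TPM. This direction does not hold under the scaling to OSN markers, whose shift of 0.99 is larger. Nuclear genes of oxidative phosphorylation had a median of 0.00 over 83 genes and sums of 19497 and 20359 TPM. Eukaryotic elongation factor *Eef1a1* was 5316 and 4285 TPM. Of 23 histone genes, 3 were at least 4-fold higher and 2 lower, and of 211 genes named *Zfp*, 2 were higher and 5 lower. The shares over all genes were 7.41% and 7.10%. The *Zfp* counts are below these shares, and the histone counts are too small to set apart from them. Clustered protocadherin genes showed no 4-fold difference among 9.

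Among ion channel genes, more were past 4-fold in the higher than in the lower direction. Of 37 potassium channel genes, 7 were at least 4-fold higher, against 7.41% of all genes. Another 2 were at least 4-fold lower, which is no more than the 7.10% of all genes. Of 13 listed ion channels of neurons, 2 were at least 4-fold higher and none was lower by that limit. *Kcnrg*, a potassium channel regulator, was 15.1 and 282 TPM. The main sodium channel of OSNs, *Scn9a*, was 328.4 and 175.1 TPM, and *Hcn2*, a pacemaker channel, 123.8 and 45.7 TPM.

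The same genes were read in the TAAR enhancer 1-GFP line, which shares no library with the tdTomato line. Among the 11586 genes, 764 were at least 4-fold higher in GFP-positive than in GFP-negative cells (6.59%) and 1517 at least 4-fold lower (13.1%). The genes higher in both lines numbered 483, which is 56.2% of those of the tdTomato line and 63.2% of those of the GFP line. The genes lower in both numbered 485, which is 58.9% and 31.97%. The lines differ in the enhancer, the reporter, the insertion site and the sort, and the differences between them were not tested. Neuronal genes were lower by more in GFP-positive cells, with a median of -3.08 for mature OSN markers, and leukocyte genes by a similar amount, with a median of -5.34 for the 8 shared genes. Axoneme genes were higher by less, with a median of 1.04 and 13 of 41 past 4-fold. The median of all 11586 genes was -0.87 in the GFP line and -0.20 in the tdTomato line. *Foxj1* was 126.3 TPM without and 302.2 TPM with GFP.

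Opposite directions past 4-fold were found in 50 genes, of which 39 were lower in tdTomato-positive and higher in GFP-positive cells and 11 were the reverse. Several of the 39 encode secreted proteins of nasal glands. *Obp1a* was 503.3 TPM without and 32783 TPM with GFP, and *Scgb1c1* was 354 and 13348 TPM there. *Lcn11* was 126 and 7179 TPM. Genes next to *Obp1a* on the X chromosome, between 77864758 and 78245921 on GRCm38, did the same and were named after their values were seen. *Gm14744* was 1438 and 32.7 TPM in the tdTomato line and 638.2 and 35912 TPM in the GFP line, negative before positive. *5430402E10Rik* was 962.7 and 62.9 TPM and 494.7 and 28136 TPM in the same order. Reads of these paralogs could be assigned to more than 1 of them. The basal keratins *Krt14* and *Krt15* also belonged to the 39, at 14.9 and 117.7 TPM and at 8.81 and 262.1 TPM in the GFP line. The 11 genes of the reverse kind were led by *Snord64*. Of the 11, 6 are microRNA or small nucleolar RNA genes, and so are 6 of the 39.

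**Figure D4:**
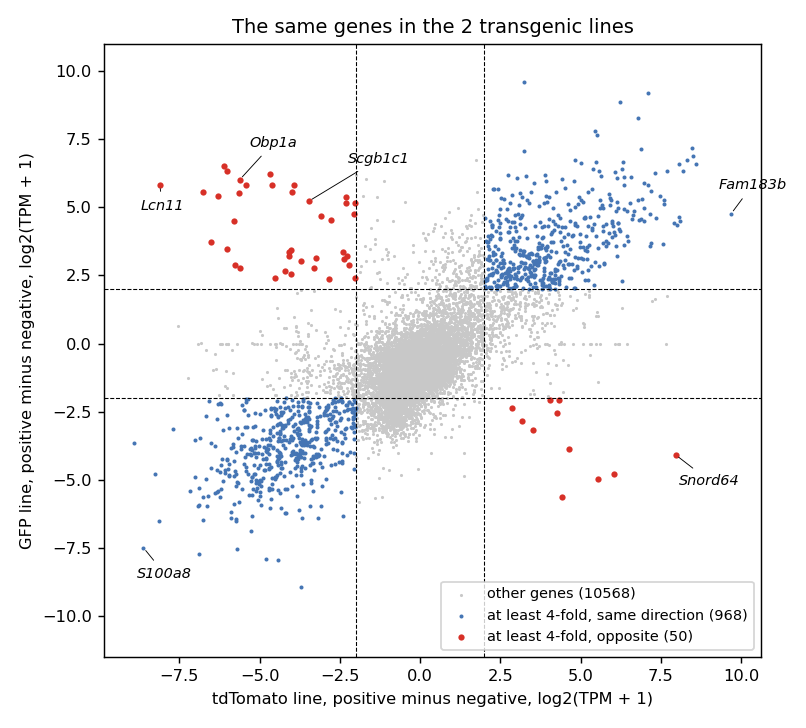
Difference in log2(TPM + 1), reporter-positive minus reporter-negative, of the 11586 genes in the tdTomato line (x axis) and in the GFP line (y axis), each from 1 pair of libraries; dashed lines are 4-fold. Blue points are the 968 genes past 4-fold in the same direction and red points the 50 genes past 4-fold in opposite directions, among them *Lcn11*, *Obp1a* and *Scgb1c1*.

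The libraries can be checked against their labels only in part. The mice were of both sexes, and *Xist* and *Eif2s3y*, which mark an inactive X and a Y chromosome, were above 10 TPM in both libraries. The reporter transcript was not analysed here.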

How the data were processed

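Cells of the MOE were sorted by reporter fluorescence, and RNA-seq was made of 4 libraries, with 1 library per group. Groups were taken from the sample titles. The authors deposited 1 table of TPM values (relative transcript abundance, corrected for length) with a row per gene symbol. Per the labels, the submitters' processing notes name Trimmomatic 0.36, Salmon 1.4.0 and mm10, whereas the paper's methods name Hisat2, Cufflinks and featureCounts. The labels name the FastPure RNA kit and the VAHTS universal V6 library kit, whereas the methods give RNeasy and Smart-seq2. Which of these made the values, the gene annotation and the strand setting are not given in the sources used here. Each library sums to 1000000 TPM, so its depth is unknown and no interval or detection limit was calculated.

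Differences were taken on log2(TPM + 1), with a pseudocount of 1 and a minimum of 10 TPM in either tdTomato library, and called at 4-fold (a difference of 2). The lists were described by counts, medians and summed TPM, beside the same over all members. Named genes are the 15 largest rises and falls, the 10 highest genes of each library, and the genes of 39 lists (506 of 515 symbols matched) and 22 families. Another 7 families, the promoter motifs, and the genes beside *Obp1a* were added after their values were seen. The members and lists were chosen with earlier results of these data known. Positions and promoters are from RefSeq (GRCm38.p6), without chromosome 18. Counting was tested on simulated libraries. Python 3.11.15, NumPy 2.4.6, pandas 2.3.3 and Matplotlib 3.10.9 were used. The 12 alternatives were pseudocounts of 0.1 and 10, 4 scalings of the libraries, 4 other minimum values, and limits of 2-fold and 8-fold. Receptor genes, the knockout mice and the chromatin data were not analysed here. A few genes of the lists are not reported here.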

Additional observations from a re-analysis of the deposited data

Results flagged for a closer look

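All values here are differences in log2(TPM + 1), tdTomato-positive minus tdTomato-negative, beside the same difference in the GFP line. They stand here because the lines went in opposite directions, and the difference between the lines was not tested, since each group has 1 library. Of the lists and families, lipocalins and odorant-binding proteins had a median of -5.14 in the tdTomato line and 5.15 in the GFP line, secretory epithelium -1.41 and 5.50, and horizontal basal cells -1.88 and 2.62. Ensheathing glia went the other way, with 1.37 and -1.39, and rest on 3 genes, all at or under 23.0 TPM in the tdTomato line.

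Among secreted proteins, the differences were -8.11 and 5.82 for *Lcn11*, -6.76 and 5.55 for *Bpifb3*, -5.79 and 4.48 for *Obp2a*, -5.61 and 6.02 for *Obp1a*, -4.67 and 6.23 for *Mup4*, and -3.46 and 5.23 for *Scgb1c1*. *Gpx6*, a glutathione peroxidase, had -4.62 and 5.82. The basal keratins *Krt14* and *Krt15* had -2.21 and 2.90 and -2.04 and 4.75. *Rgs5*, the 1 mural cell gene that reached 10 TPM, had -3.30 and 2.77. *Snord64*, a small nucleolar RNA gene, had 7.97 and -4.09 and was listed at 0 in tdTomato-negative cells.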

How the results depend on the processing

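No paired analysis was possible because the groups hold a single library, with no test. A log2 value is called moved when it changed by at least 0.58 (1.5-fold). A pseudocount of 10 gave 437 genes 4-fold higher and 278 lower, and a minimum of 50 TPM gave 467 and 232. A minimum of 1 TPM and no minimum each gave 1296 lower, with 1214 higher, which is within 1.5 times. The 8-fold limit gave 521 higher, and the 2-fold limit 1728 higher and 1921 lower. These changes follow from how each alternative is built. Scaling to the mature OSN markers gave 1713 higher, and its medians were 0.79 for all genes, -0.0306 for mature OSN markers, -0.47 for secretory epithelium and 3.78 for the axoneme. The median-ratio scaling moved the median of all genes by 0.18, and 56.7% of 4-fold genes were then higher, against 51.1% with the deposited values. Medians of at least 2-fold that changed sign were secretory epithelium with a minimum of 50 TPM (0.70), mural cells with a minimum of 1 TPM (0.90) and with none (0.35), and ensheathing glia with no minimum (-0.0334), as the genes included then differed. Smaller medians turned too. Scaled to the mature OSN markers, they were 0.19 for odour transduction, 0.22 for receptor choice, 0.58 for heterochromatin, 0.31 for presynaptic genes, 0.24 for immediate early genes, 0.58 for ion channels and 0.11 for the ventral zone. With a minimum of 1 TPM they were -0.0471 for Notch signalling and -0.22 for fibroblasts, and with none -0.0471 and -0.15. Medians of leukocyte lists moved with the pseudocount but stayed below 0. With 10 they were -3.01 for neutrophils, -2.49 for lymphocytes, -1.81 for macrophages and -3.90 for the shared leukocyte genes. With 0.1 they were -6.99 for neutrophils and -7.47 for lymphocytes. The unknown depth limits genes of low TPM most.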
